A study of Mus musculus with 95 samples.

Results

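The effect of pioglitazone was measured in db/+ mice, heterozygous animals that do not become diabetic, by setting db/+ mice given the drug (db/+ PIO) against untreated db/+ mice in sciatic nerve (SCN), dorsal root ganglia (DRG), glomeruli (Glom) and kidney cortex. The libraries were chosen by their labels alone, all libraries of both groups in each tissue, which gave 48 of the 95 libraries in the series, with 6 db/+ PIO and 6 db/+ libraries per tissue. The mice were males of the strain BKS.Cg-m +/+ Leprdb/J, which carry 1 mutated copy of the leptin receptor gene, and they were 16 weeks old when tissue was taken. The db/+ PIO mice ate chow that delivered 15 mg/kg pioglitazone for 11 weeks, and the db/+ mice were untreated. The homozygous db/db mice of the same study, with and without the drug (24 and 23 libraries), entered the fits to estimate the spread between libraries and are otherwise used only where the drug effect was compared between genotypes. By the study's methods the 4 tissues came from 6 mice per group, so libraries of different tissues share mice, but the labels do not say which libraries belong to one mouse, and the p-values measure the spread between libraries.

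Pioglitazone is a thiazolidinedione that binds and activates PPARG, a nuclear receptor. PPARG pairs with a retinoid X receptor on response elements made of repeated AGGTCA motifs and drives genes of fat storage, fatty acid transport and fatty acid oxidation, most strongly in adipocytes and also in endothelium and macrophages. Fat lies around peripheral nerve and in the renal hilum, and the drug is used to lower insulin resistance, so db/+ mice give the drug's effect on these tissues without hyperglycaemia.

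Expression was measured by RNA-Seq as FPKM, fragment counts scaled to transcript length and to the size of the library, for 25407 gene symbols. The 48 libraries had 7613 to 10432 genes above 0, and 58.9% to 70.0% of the symbols were listed at exactly 0. These included genes that every cell uses, since Actb was at 0 in 38 of the 48 libraries, with a median of 726 FPKM in the others, and Gapdh in 17. A 0 was therefore taken as a missing value. Marker genes matched the tissue labels where they had values: Mbp, a myelin protein, had 9692 to 11385 FPKM in db/+ PIO SCN and 10695 to 13038 FPKM in db/+ SCN, the neurofilament gene Nefl had 3255 to 4711 FPKM in db/+ PIO DRG and 3513 to 3734 FPKM in db/+ DRG, and the podocyte gene Podxl had 1881 to 3085 FPKM in the 12 Glom libraries with a value. Other defining markers were at 0 in all 12 libraries of their tissue, among them Pmp22 and Prx in SCN, 5 of 6 sensory neuron markers in DRG, Nphs1 and Wt1 in Glom, and the proximal tubule genes Lrp2, Slc22a6 and Slc5a2 in cortex, where Kap had values in 4 libraries. Expression was compared on the log2(FPKM + 1) scale with limma, and a gene was called when its p-value, adjusted by Benjamini-Hochberg over all genes tested in the tissue, was below 0.05. All fold changes are log2 values of db/+ PIO over db/+ on that scale, on which changes of weakly expressed genes come out smaller than they are.

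Few of the genes that could be tested were called for an effect of pioglitazone in non-diabetic mice. In SCN 4 of 5142 tested genes were called (0.0778%), with Rbp7 and Hadh higher and Kcne4 and LOC100504147 lower in db/+ PIO. In cortex 1 of 4004 genes was called (0.025%), again Rbp7, which was higher in db/+ PIO. In DRG 0 of 4153 genes and in Glom 0 of 4419 genes were called by limma, while 389 genes in DRG (9.37%) and 113 in Glom (2.56%) had an unadjusted p below 0.05. Split by direction, these were 5.3% higher and 4.07% lower in DRG, and 1.65% higher and 0.905% lower in Glom. The unadjusted share was 12.5% in SCN, with 242 genes higher (4.71%) and 403 lower (7.84%), and 2.35% in cortex, with 0.624% higher and 1.72% lower. The median fold change over all tested genes was close to 0 in each tissue, at -0.01 in SCN, 0.004 in DRG, 0.008 in Glom and -0.006 in cortex. In data simulated from the same libraries, 95% of genes changed by 1 on the log2 scale were called in SCN, 96% in DRG, 93% in Glom and 84% in cortex. The simulation changed 100 genes by 1 and others by 2 at the same time, which eases the adjusted threshold. The changed genes were drawn only from those tested in all 4 tissues, and the spread was drawn from a normal distribution. These shares therefore do not give the share that would be found where few genes change or among all genes tested in a tissue. The count in SCN ran between 1 and 30 when single libraries were left out, with 30 without db/+ replicate 6 and 1 without db/+ replicate 3 or db/+ PIO replicate 3 or 5. It was 10 after median-of-ratios rescaling (5 higher and 5 lower) and 3 after quantile normalisation (Rbp7, Hadh and Cox8b, all higher), which moved the median of all genes in SCN to 0.16.

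**Figure D1:**
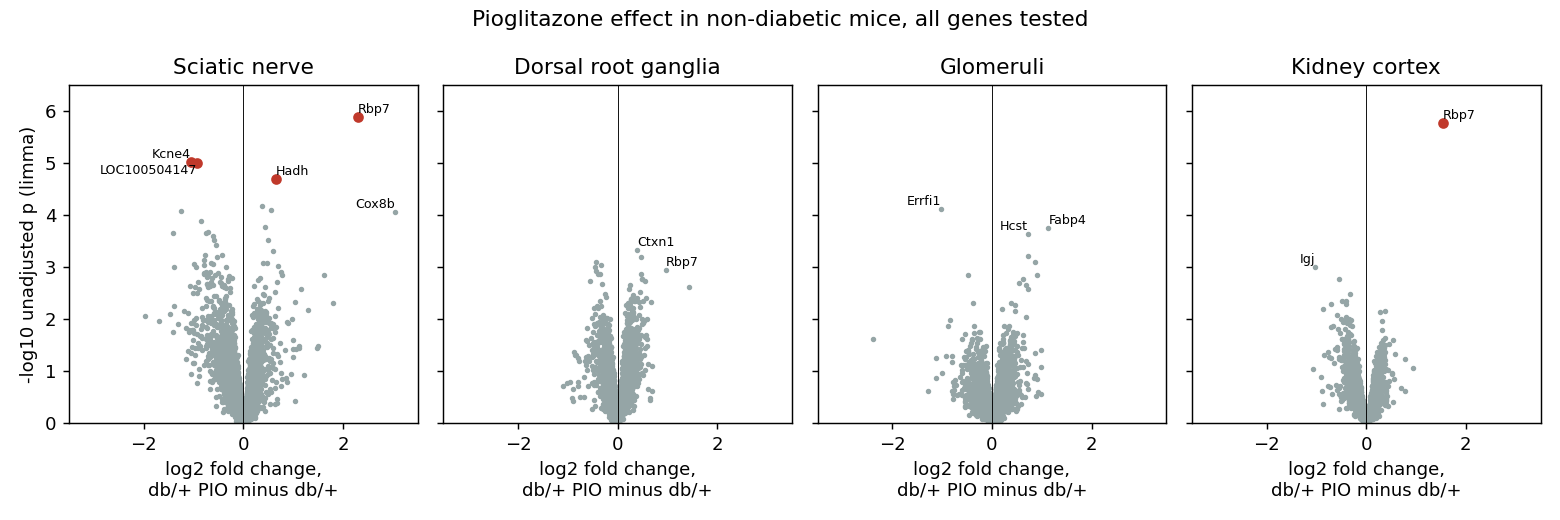
Fold change (log2, db/+ PIO over db/+, horizontal axis) and unadjusted p-value (-log10, vertical axis) of every tested gene in each of the 4 tissues, with called genes marked and named. The 4 called genes in SCN and the single one in cortex stand apart from the cloud of points, and DRG and Glom have no called gene.

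Rbp7, the gene with the smallest p-value in both SCN and cortex, encodes a cytosolic retinoid-binding protein of adipocytes and endothelium and is a known target of PPARG. It lies on chromosome 4 at 148823796 to 148829087 on the minus strand (mm9). In SCN, Rbp7 had 20.7, 37.9 and 57.2 FPKM (lowest, median and highest, n = 6) in db/+ PIO, against 2.67, 7.46 and 9.98 FPKM (n = 6) in db/+. Every db/+ PIO nerve was above every db/+ nerve, and the lowest db/+ PIO values, 20.7 and 21.3 FPKM, were those of replicates 1 and 6. Rbp7 rose by 2.30 ± 0.33 in SCN (SE, n = 6 each, adjusted p = 0.00686, limma). The call held when any single SCN library was left out, with adjusted p between 0.00463 and 0.0275. It ended when each 0 entered as a value (adjusted p = 0.831, with the same fold change), where the 0 values of Rbp7 in SCN were all in db/db libraries.

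In cortex, Rbp7 had values in 4 db/+ PIO libraries, at 1.21, 1.61, 3.34 and 3.91 FPKM, and in 5 db/+ libraries, at 0.10, 0.11, 0.12, 0.16 and 0.27 FPKM. The groups did not overlap, although replicates 1 and 4 of db/+ PIO and replicate 1 of db/+ were listed at 0. Rbp7 rose by 1.53 ± 0.23 in cortex (SE, n = 4 and 5, adjusted p = 0.00692, limma). This call ended without db/+ PIO replicate 5 (adjusted p = 0.056) and with each 0 entered as a value (0.99, adjusted p = 0.899). All 5 db/+ values were below the 1 FPKM of the expression filter, so Rbp7 passed it in cortex through db/+ PIO and db/db libraries. With only the compared groups in the fit it did not pass and was not tested. Its presence among the tested genes thus depended in part on the higher db/+ PIO values.

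Rbp7 was also higher on average in the tissues where it was not called. In DRG it had 1.03, 2.15 and 6.09 FPKM (n = 6) in db/+ PIO, against 0.10, 0.83 and 1.58 FPKM (n = 6) in db/+. The DRG groups overlapped, and the difference of 0.97 ± 0.26 had an unadjusted p of 0.00113 and an adjusted p of 0.513 in limma. In Glom, where Rbp7 was below the expression filter, it had 0.21, 0.64 and 3.62 FPKM (n = 6) in db/+ PIO, against 0.09, 0.17 and 0.31 FPKM (n = 4) in db/+, and 2 db/+ libraries were at 0. That difference of 0.63 had p = 0.0571 in a two-sided exact permutation test, in which the smallest possible p is 0.00952. With the filter on low values dropped, the mean fold change of Rbp7 over the 4 tissues was 1.36 ± 0.15 (SE, adjusted p = 1.76e-09, limma), with a positive fold change in each. That fit took the libraries of the 4 tissues as separate, although the tissues came from the same mice. Rbp7 was also chosen for its calls in SCN and cortex, so this p-value adds no separate evidence to those calls.

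**Figure D2:**
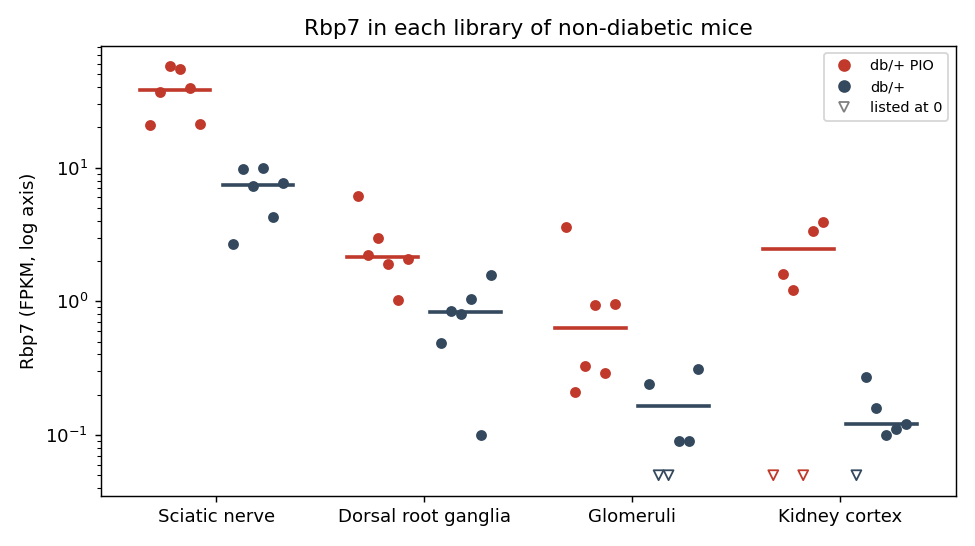
FPKM of Rbp7 in each library (log axis), with db/+ PIO left of db/+ in each of the 4 tissues, horizontal bars at the medians and libraries listed at 0 drawn apart. The groups separate in SCN and among the values above 0 in cortex, and overlap in DRG and Glom.

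PPARG acts through motifs in DNA. For that reason the bases just before the start of Rbp7, Kcne4 and Hadh, the called genes with a RefSeq entry, are shown. Each is the stretch of 250 bases that ends 1 base before the RefSeq start, 5′ to 3′ on the gene's strand, with capitals marking GC boxes (GGGCGG or its complement CCGCCC). The positions are those of RefSeq's GRCm38.p6 and differ from the mm9 positions of the expression files: chr4:149454969-149455218 on the minus strand for Rbp7, chr1:78816661-78816910 on the plus strand for Kcne4 and chr3:131272102-131272351 on the minus strand for Hadh. LOC100504147 had no entry.
Rbp7: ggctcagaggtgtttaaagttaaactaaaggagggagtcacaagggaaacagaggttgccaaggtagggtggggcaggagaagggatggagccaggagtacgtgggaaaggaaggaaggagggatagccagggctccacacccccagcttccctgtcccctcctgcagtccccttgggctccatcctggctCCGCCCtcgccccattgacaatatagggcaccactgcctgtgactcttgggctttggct
Kcne4: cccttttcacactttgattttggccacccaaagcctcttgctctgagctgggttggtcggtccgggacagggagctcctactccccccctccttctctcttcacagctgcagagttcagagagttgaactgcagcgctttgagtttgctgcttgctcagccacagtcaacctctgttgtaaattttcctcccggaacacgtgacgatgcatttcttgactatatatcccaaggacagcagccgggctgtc
Hadh: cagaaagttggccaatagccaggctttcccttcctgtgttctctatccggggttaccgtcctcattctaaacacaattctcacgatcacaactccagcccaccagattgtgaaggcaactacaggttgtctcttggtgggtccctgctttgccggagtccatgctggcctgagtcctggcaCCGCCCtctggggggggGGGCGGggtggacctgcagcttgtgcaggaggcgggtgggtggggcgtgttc
None of the 3 windows held the PPAR response element AGGTCANAGGTCA, a single AGGTCA or the TATA box TATAAA on either strand. Over 32851 promoters of the same length, AGGTCANAGGTCA was present in 0.0335%, AGGTCA in 14.0% and TATAAA in 12.4%. The GC box, present in 32.7% of promoters, occurred once before Rbp7, at 2 places before Hadh and not before Kcne4, and the GC content of these windows was 58.4%, 59.6% and 53.2%. A window without these letters says nothing about sites elsewhere.

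The other gene called higher in SCN was Hadh, the mitochondrial 3-hydroxyacyl-CoA dehydrogenase of fatty acid oxidation, on chromosome 3 at 130936337 to 130975019 (minus strand, mm9). Hadh had 102.8, 104.7, 113.3 and 127.0 FPKM in 4 db/+ PIO nerves, with replicates 1 and 6 at 0, against 62.1, 64.9, 70.7, 74.8 and 84.0 FPKM in 5 db/+ nerves. The values above 0 did not overlap. Hadh rose by 0.65 ± 0.10 (SE, n = 4 and 5, adjusted p = 0.0265, limma). This call ended in 8 of the 24 fits that left out 1 library (adjusted p up to 0.0831), with the db/+ and db/+ PIO groups alone in the fit (adjusted p = 0.114) and with the replicate number as a block (0.15). Entering each 0 as a value gave a fold change of -0.60.

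Kcne4 and LOC100504147 were lower in db/+ PIO nerve. Kcne4, on chromosome 1 at 78813502 to 78816599 (plus strand, mm9), encodes an accessory subunit that inhibits voltage-gated potassium channels. It had 1.34, 1.78 and 1.96 FPKM in db/+ PIO (n = 6), against 2.48, 4.68 and 7.86 FPKM in db/+ (n = 6), and the groups did not overlap. The db/+ values split into 3 high ones, in replicates 2, 3 and 4 (6.07 to 7.86 FPKM), and 3 lower ones (2.48 to 3.28 FPKM). Kcne4 fell by 1.06 on the log2 scale in SCN (SE 0.19, adjusted p = 0.0171, limma), a call that ended without db/+ replicate 3 or 4 or db/+ PIO replicate 3 or 5 (adjusted p up to 0.0718). In Glom, Kcne4 was 3.03, 4.04 and 5.74 FPKM in db/+ PIO, against 2.07, 2.95 and 4.16 FPKM in db/+, a difference of 0.37 that was not called (adjusted p = 0.997, limma).

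LOC100504147 is a locus that the annotation used here does not describe. It had 11.3, 15.2 and 25.7 FPKM in db/+ PIO nerve (n = 6), against 22.8, 32.5 and 35.4 FPKM in db/+ nerve (n = 6). A single db/+ PIO library, the highest, lay within the db/+ range. It fell by 0.93 on the log2 scale (SE 0.17, adjusted p = 0.0171, limma), and this call ended in 5 of 24 fits without 1 library (adjusted p up to 0.0718). The calls of Kcne4 and LOC100504147 also ended after quantile normalisation, with the db/+ and db/+ PIO groups alone in the fit, and with each 0 as a value, with adjusted p up to 0.247 and 0.346.

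Other genes missed the threshold in SCN by little, with an adjusted p of 0.0562 in limma. Adprhl2, an ADP-ribosylhydrolase, had 17.8, 18.0 and 19.9 FPKM in db/+ PIO (n = 4), against 12.3, 13.9 and 15.3 FPKM in db/+ (n = 5), with a fold change of 0.38 and no overlap. Ndufa10, a subunit of respiratory complex I, had 53.0, 55.2 and 64.1 FPKM in db/+ PIO (n = 3), against 34.8, 38.1 and 41.7 FPKM in db/+ (n = 5), with a fold change of 0.56 and no overlap. Slc16a9, a carnitine transporter, had 1.38, 2.89 and 3.73 FPKM in db/+ PIO, against 3.43, 9.21 and 13.0 FPKM in db/+ (n = 5 each), with a fold change of -1.24 and a narrow overlap.

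The best-known targets of PPARG in fat had high levels in SCN and varied widely between nerves. Fabp4, the fatty acid carrier of adipocytes, had 5766, 6530, 7495 and 9665 FPKM in 4 db/+ PIO nerves, against 1543 and 2874 FPKM in the 2 db/+ nerves with a value. The values did not overlap, but 2 values in db/+ were too few for the fit, and the exact two-sided permutation test gave p = 0.133, the smallest it can reach here. Cox8b, a respiratory chain subunit found in brown fat and muscle, had 15.8, 139.3 and 270.1 FPKM in db/+ PIO (n = 5), against 3.82, 10.8 and 19.4 FPKM in db/+ (n = 6). Its fold change of 3.05 ± 0.62 was the largest of the named genes in SCN and missed the threshold (adjusted p = 0.0562, limma), with overlap from replicate 1 of db/+ PIO.

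Cidea, a lipid droplet protein of brown adipocytes, was lowest among db/+ PIO nerves in replicates 1 and 6. It had 0.69, 1.07, 6.82, 11.1 and 23.7 FPKM in db/+ PIO, against 0.16, 0.65 and 1.82 FPKM in db/+ (lowest, median and highest, n = 6), a fold change of 1.81 (unadjusted p = 0.00501, adjusted p = 0.255, limma). Lpl, the lipase that frees fatty acids from lipoproteins, had 53.9, 232.3, 232.7 and 340.0 FPKM in db/+ PIO, against 26.5, 61.9 and 134.2 FPKM in db/+ (lowest, median and highest, n = 5), a fold change of 1.51 (unadjusted p = 0.0325, limma). Adipoq, the adipocyte hormone adiponectin, had 73.6, 269.8 and 323.4 FPKM in db/+ PIO, against 38.9, 46.0, 96.3 and 226.1 FPKM in db/+, and its fold change of 1.22 had an unadjusted p of 0.119. These groups overlap for Cidea, Lpl and Adipoq.

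Among db/+ PIO nerves, Cox8b, Cidea and Ucp1 were lower in replicates 1 and 6 than in the other replicates with a value, and Rbp7 was lowest in the same 2 nerves. Of the 18 white adipocyte genes in the files, Thrsp and Cebpa had a value in all 12 nerves, and 6 were at 0 in all 12. Thrsp and Cebpa summed to 21.7, 96.9 and 151.9 FPKM (lowest, median and highest) in db/+ PIO, against 18.8, 67.2 and 143.6 FPKM in db/+. The part of adipocytes in the fold changes of Rbp7, Hadh and the fat genes was not tested, and in bulk tissue a change in the number of cells of a type and a change in RNA per cell cannot be told apart.

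**Figure D3:**
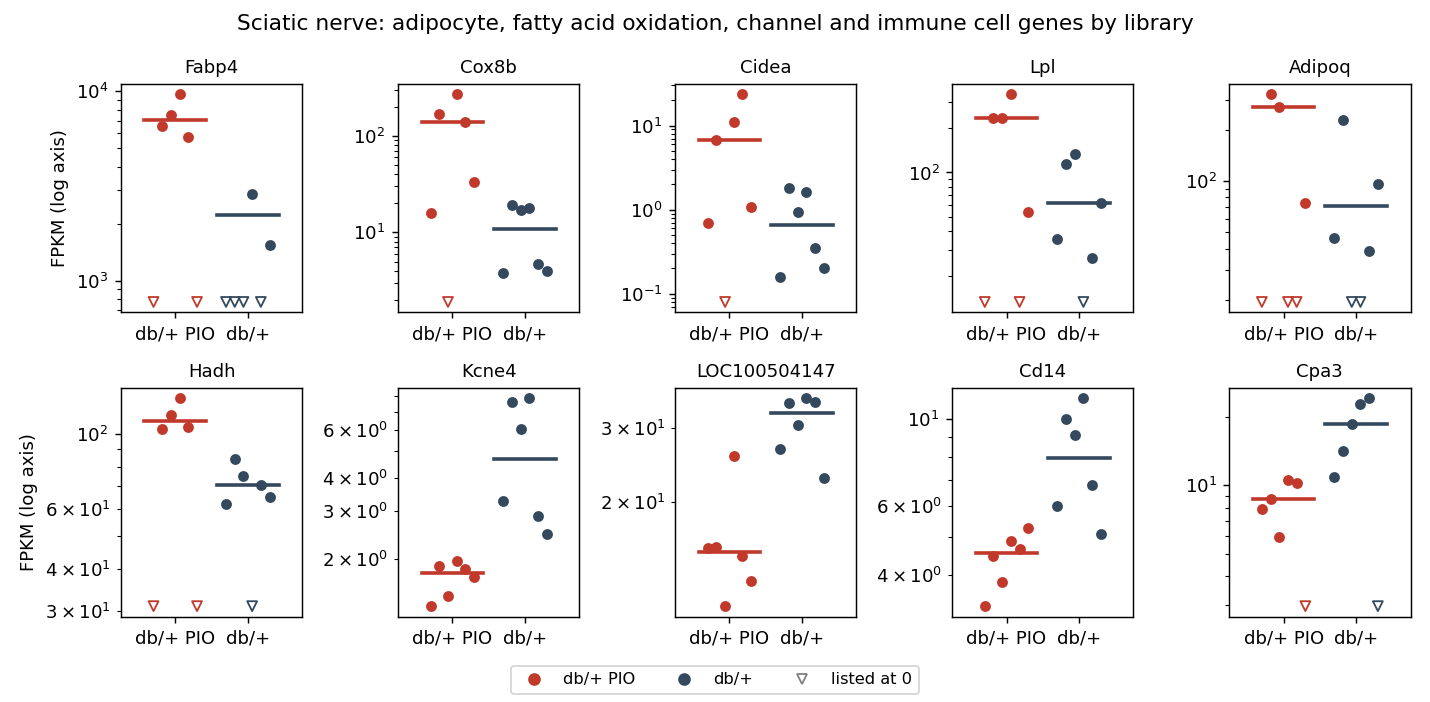
FPKM in each SCN library (log axis) of 10 genes, db/+ PIO left of db/+, with bars at the medians: the fat and oxidation genes Fabp4, Cox8b, Cidea, Lpl, Adipoq and Hadh, and the genes with lower values Kcne4, LOC100504147, Cd14 and Cpa3. Cox8b and Cidea spread over more than 1 order of magnitude within db/+ PIO, while Kcne4 in db/+ PIO stays between 1.34 and 1.96 FPKM.

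As a group, 12 of the 41 PPAR target genes in the files passed the filter in SCN. None was called, 9 had a positive fold change, and 5 were higher at an unadjusted p below 0.05 (Cidea, Cat, Ucp3, Lpl and Plin5) and none lower, with a median of 0.26, beside -0.01 and 4.71% higher over all genes. Cat, the peroxisomal catalase, had 154.5, 187.3 and 232.4 FPKM in db/+ PIO (n = 5), against 127.1, 134.9 and 139.3 FPKM in db/+ (n = 3), a fold change of 0.46 (unadjusted p = 0.00886, limma). Plin5, a lipid droplet protein of oxidative tissue, had a fold change of 1.12 and the mitochondrial carrier Ucp3 one of 0.36. Brown adipocyte genes had 6 of 11 tested and a median of 0.75, with Cox8b, Cidea and Ucp1 higher at an unadjusted p below 0.05. Plin5 and Ucp1 reached 1 FPKM in fewer than 5 of the 12 nerves, mostly or only in db/+ PIO, and passed the filter through db/db libraries. The counts that include them are therefore description only. White adipocyte genes had 7 of 18 tested and a median of 0.39, with 1 higher at that level.

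Other groups of metabolism had positive medians in SCN with no member called. Over all genes tested in SCN 47.2% of fold changes were positive, and 4.71% of genes were higher at an unadjusted p below 0.05. All 8 tested of 36 oxidative phosphorylation genes had positive fold changes (median 0.24), and Cox5b, a subunit of cytochrome c oxidase, had 234.8, 295.3 and 311.0 FPKM in 3 db/+ PIO nerves, against 169.6, 201.6 and 221.1 FPKM (n = 4) in db/+, a fold change of 0.49 (unadjusted p = 0.00449, limma). All 5 tested of 23 cholesterol synthesis genes were positive (median 0.32), with Insig1, Mvd and Acat2 at fold changes of 0.34, 0.34 and 0.32 and unadjusted p-values below 0.05. All 4 tested genes of the TCA cycle were positive (median 0.28). The coregulators of the PPAR list, with 5 of 18 tested, had a median of -0.09, which was 0.18 after quantile normalisation. Ppargc1b, a coactivator of mitochondrial genes, had 0.59, 0.71 and 1.11 FPKM in db/+ PIO and 0.36, 0.47 and 0.55 FPKM in db/+ (n = 6 each), with no overlap, a fold change of 0.28 (unadjusted p = 0.00735, limma). At these low levels Ppargc1b passed the filter only through db/db libraries. Entering each 0 as a value gave medians of -1.02 for the oxidative phosphorylation, -0.21 for the cholesterol and 0.02 for the TCA cycle genes and of 0.46, 0.71 and 0.28 for the PPAR target, brown adipocyte and white adipocyte genes. The list of PPAR targets did not hold Rbp7 or Hadh.

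Pparg itself, the receptor of the drug, could be compared in cortex only. It had 1.12, 1.14 and 2.11 FPKM in 3 db/+ PIO libraries, against 1.06, 1.28 and 1.80 FPKM in 3 db/+ libraries, a fold change of 0.03 (unadjusted p = 0.846, limma). Pparg was listed at 0 in all 12 SCN libraries, and had 2 values per group in DRG and 1 per group in Glom.

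Markers of macrophages and mast cells, and genes of the extracellular matrix, had negative medians in SCN. Of 18 macrophage markers 11 were tested, 10 had negative fold changes (median -0.49) and 6 were lower at an unadjusted p below 0.05, beside 7.84% lower over all genes, but none was called. Cd14, a co-receptor for bacterial lipopolysaccharide on myeloid cells, had 3.34, 4.57 and 5.28 FPKM in db/+ PIO nerve and 5.08, 7.94 and 11.3 FPKM in db/+ nerve (n = 6 each), a fold change of -0.70 (adjusted p = 0.089, limma). The groups overlapped only in that the lowest db/+ nerve, at 5.08 FPKM, lay below the highest db/+ PIO nerve. Cd163, a scavenger receptor for haemoglobin, had 3.39, 4.27 and 5.32 FPKM in db/+ PIO (n = 5), against 5.35, 9.27 and 10.6 FPKM in db/+ (n = 4), with a fold change of -0.80 and no overlap (unadjusted p = 0.00132, limma). C1qa, a subunit of the complement initiator, and Csf1r, the macrophage growth factor receptor, had fold changes of -0.68 and -0.49.

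Of 10 mast cell markers 7 were tested in SCN, 6 were negative (median -0.35) and 5 were lower at an unadjusted p below 0.05, beside a median of -0.01 and 7.84% lower over all genes. Cpa3, a mast cell protease, had 5.92, 8.76 and 10.6 FPKM in db/+ PIO, against 10.8, 18.7 and 24.1 FPKM in db/+ (n = 5 each), with a fold change of -0.95 and no overlap (unadjusted p = 0.000993, limma). Of 26 genes of matrix remodelling and TGF-beta 15 were tested, 14 were negative (median -0.31) and 4 were lower at that level, beside the same 7.84%, with fold changes of -0.69 for the gelatinase Mmp9, -0.46 for Mmp14, -0.52 for Tgfb3 and -0.31 for Smad7. All 5 tested collagen genes were negative (median -0.43), and so were all 4 tested perineurial and fibroblast markers (median -0.57), of which Cldn1, a tight junction protein of perineurium, had 5.05, 12.7 and 44.9 FPKM in db/+ PIO and 13.8, 56.9 and 84.3 FPKM in db/+ (n = 6 each), a fold change of -1.47 with wide overlap (unadjusted p = 0.00782, limma). These lists share the same 12 libraries, and over all genes tested in SCN 47.2% of fold changes were positive. Entering each 0 as a value gave medians in SCN of 0.03 for macrophage, -0.28 for mast cell, -0.02 for matrix, 0.43 for collagen and 0.36 for perineurial genes, and the part of perineurium or of connective tissue taken along with the nerve was not tested.

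In DRG no gene was called, and the gene with the smallest p-value was Ctxn1, a neuronal membrane protein. Ctxn1 had 26.0, 29.7 and 43.7 FPKM in db/+ PIO and 21.9, 24.4 and 26.6 FPKM in db/+ (n = 6 each), a fold change of 0.39 (unadjusted p = 0.000476, adjusted p = 0.513, limma). Exosc5, a subunit of the RNA exosome, and Twf2, an actin-binding protein, had fold changes of 0.47 and 0.47 with 3 values in db/+ PIO. The lowest p-values among genes with lower values belonged to Gm3662 (-0.43), the centromere protein gene Cenpq (-0.33), LOC100503476 (-0.46), the cilium gene Rpgrip1l (-0.44) and Ibsp (-0.36), a bone matrix protein. White adipocyte genes in DRG had 9 of 18 tested, with 4 positive and 5 negative fold changes (median -0.04). Of these 2 were higher and 0 lower at an unadjusted p below 0.05, beside 5.3% higher over all genes. Brown adipocyte genes had 5 of 11 tested, 4 positive and 1 negative (median 0.23), with 1 higher at that level. This was Cox7a1, the muscle and brown fat form of a cytochrome c oxidase subunit. It had 18.6, 19.0 and 33.4 FPKM in db/+ PIO (n = 5), against 12.6, 15.3 and 16.4 FPKM in db/+ (n = 4), with a fold change of 0.51 and no overlap (unadjusted p = 0.00441, limma).

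PPAR target genes in DRG had 11 of 41 tested, a median of 0.10, which was -0.05 after quantile normalisation, and none at an unadjusted p below 0.05. Skeletal muscle markers had the most negative median of the lists with 5 or more genes tested in DRG, at -0.88 with 5 of 15 tested, and Myh4 and Ckm, a myosin and the muscle creatine kinase, had unadjusted p-values of 0.0267 and 0.0422. The 5 summed to 0.42, 3.57 and 16.3 FPKM in db/+ PIO DRG, against 1.52, 9.47 and 29.5 FPKM in db/+ DRG, with wide overlap. Markers of neutrophils and eosinophils had a median of -0.68 with 11 of 15 tested and none at an unadjusted p below 0.05, and the 7 with a value in all 12 libraries summed to 17.8, 58.6 and 289.6 FPKM in db/+ PIO, against 20.7, 144.2 and 380.3 FPKM in db/+. Macrophage markers, negative in SCN, had a median of 0.03 in DRG, which was -0.10 after quantile normalisation.

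In Glom 3 genes shared the lowest adjusted p-value, 0.342 by limma. Errfi1, a feedback inhibitor of the EGF receptor, had 7.74, 9.57 and 10.2 FPKM in db/+ PIO (n = 5), against 13.7, 21.1 and 25.3 FPKM in db/+ (n = 3), a fold change of -1.03 ± 0.20. Fabp4 had 218.6, 244.9, 367.6 and 372.8 FPKM in 4 db/+ PIO libraries, against 111.9, 121.6, 123.9, 128.6 and 189.3 FPKM in 5 db/+ libraries, a fold change of 1.14 ± 0.22. Hcst, the DAP10 adaptor of natural killer cell receptors, had 2.34, 2.75 and 4.24 FPKM in db/+ PIO (n = 6), against 0.79, 1.69 and 1.94 FPKM in db/+ (n = 5), a fold change of 0.73 ± 0.16. The groups did not overlap for any of the 3 genes, but entering each 0 as a value gave fold changes of 0.60 for Errfi1 and -0.42 for Fabp4.

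PPAR target genes in Glom had fold changes in both directions. Over all genes tested in Glom 52.7% of fold changes were positive, and 0.905% of genes were lower at an unadjusted p below 0.05. Of 41 genes 14 were tested, 5 had positive fold changes, Fabp4 among them, and 9 negative ones (median -0.16), and the acyl-CoA thioesterases Acot1 and Acot2 had fold changes of -0.44 and -0.27 at unadjusted p-values of 0.0326 and 0.0424. Oxidative phosphorylation genes, positive in SCN, had 2 positive and 6 negative fold changes among 8 tested in Glom (median -0.10). Proximal tubule markers had 10 negative among 11 tested (median -0.19), none at an unadjusted p below 0.05. Kap had 76.8, 218.7 and 274.2 FPKM in db/+ PIO, against 110.8, 260.6 and 4781 FPKM in db/+ (lowest, median and highest, n = 4 each), a fold change of -1.29 with overlap (unadjusted p = 0.24, limma).

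In cortex, the gene with the smallest p-value after Rbp7 was Igj, the joining chain of secreted antibodies, with 6.95, 8.35 and 8.73 FPKM in 3 db/+ PIO libraries, against 11.6, 14.9 and 35.7 FPKM (n = 6) in db/+. The groups did not overlap, and the fold change was -1.03 (unadjusted p = 0.000992, adjusted p = 1, limma). The Fc receptor Fcgr4 (-0.54), the collagenase Mmp13 (-0.32), Tmem213 (-0.49) and the plasma protein gene Hrg (-0.40) had the next smallest p-values among genes with lower values, and Tusc1 (0.37), Srfbp1 (0.29), Fancf (0.31) and Shroom1 (0.31) among genes with higher values. Over all genes tested 48.2% of fold changes were positive in cortex and 51.2% in DRG, and 1.72% of genes were lower in cortex at an unadjusted p below 0.05. All 6 tested macrophage markers were negative in cortex (median -0.43), with Cd14 (-0.45) and Aif1 (-0.46) at an unadjusted p below 0.05. In SCN 10 of 11 had been negative. Lyz2, Cd14, Cd163 and Mrc1 together had 21.8, 29.7 and 55.1 FPKM in db/+ PIO cortex, against 28.6, 44.4 and 71.7 FPKM in db/+ cortex. Interferon-stimulated genes had 7 of 8 tested negative in cortex (median -0.32), with Bst2, a tether of budding viruses, at -0.51 and Ifit1 at -0.42, whereas in DRG all 8 tested were positive (median 0.17) and Bst2 was at 0.66, and the difference between these tissues was not tested for the list. Fabp4 was listed at 0 in all 6 db/+ PIO cortex libraries and had 165.7 and 384.0 FPKM in 2 db/+ libraries. Total FPKM was 184748 to 295090 (median 269071) in db/+ PIO cortex and 189490 to 244183 (median 207223) in db/+ cortex.

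**Figure D4:**
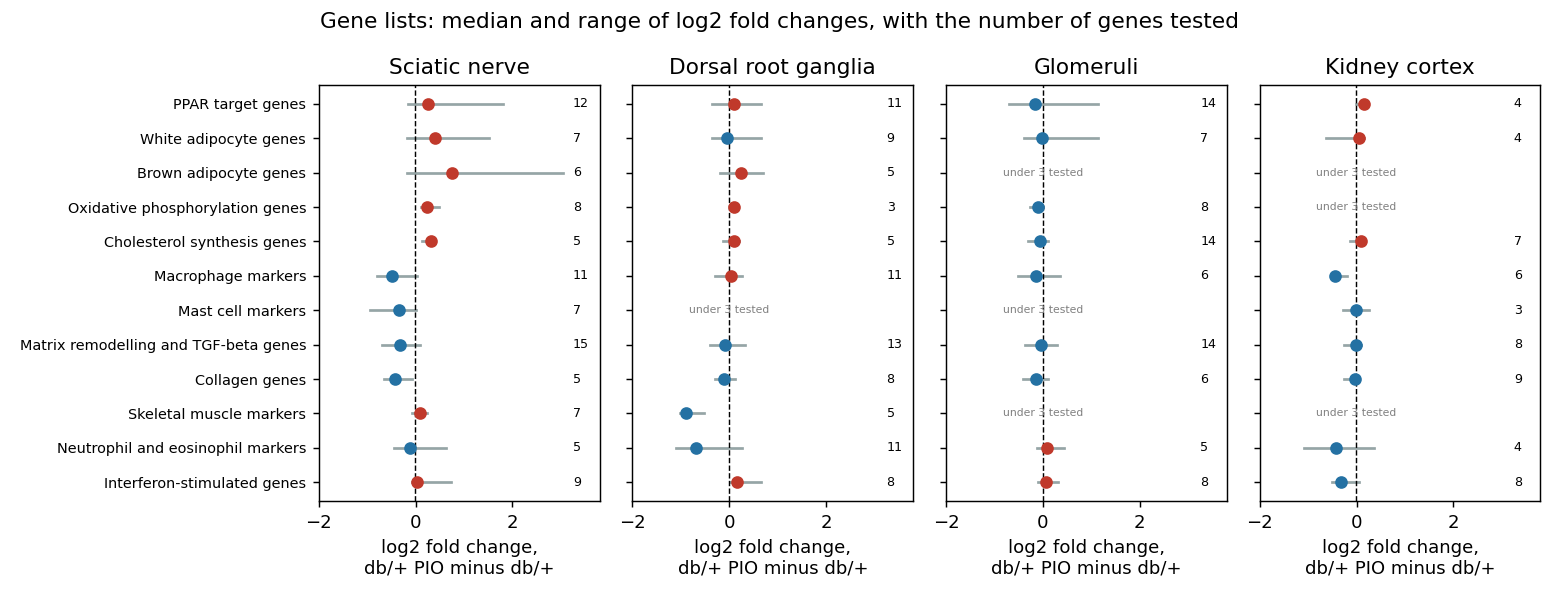
Median fold change (log2, db/+ PIO over db/+) of the tested genes of 12 lists in each tissue, with lines from the lowest to the highest member, the number of tested genes beside each, and a dashed line at the median of all genes. Fat, oxidative phosphorylation and cholesterol lists lie right of 0 in SCN, macrophage, mast cell, matrix and collagen lists left of 0.

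Whether pioglitazone acted alike in the 4 tissues was examined by correlating fold changes across the genes tested in both tissues of a pair. Of 8119 genes tested in at least 1 tissue, 1511 were tested in all 4. Pearson's r was 0.225 between SCN and DRG over 2697 genes, where 59.1% of genes had the same sign, and it was between -0.002 and 0.117 in the other 5 pairs. SCN and cortex had r = 0.111 over 2726 genes, and DRG and cortex r = -0.002 over 2212 genes with 46.2% of the same sign. The genes are not independent replicates, no p-value is given, and the tissues of a pair have different libraries from the same mice. When single libraries were left out, r between SCN and DRG ranged from 0.171 to 0.270 and stayed above that of each other pair in the complete data. In the same kind of fits r between DRG and Glom ranged from 0.047 to 0.185, so the ranges of these 2 pairs overlap. After quantile normalisation r was 0.160 for SCN and DRG and 0.153 for DRG and Glom.

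Shared genes with small p-values were few. Between SCN and DRG 29 of the 2697 genes (1.08%) had an unadjusted p below 0.05 in both tissues, beside 12.5% of genes in SCN and 9.37% in DRG alone, and 25 of them had the same sign, among them Rbp7, higher in db/+ PIO of both, and Gm14149 and Gm3662, lower in db/+ PIO of both. The other pairs had 12 such genes (SCN and Glom, 7 of the same sign), 10 (SCN and cortex, 8), 9 (DRG and Glom, 7), 4 (DRG and cortex, 2) and 0 (Glom and cortex). Of the 1511 genes tested in all 4 tissues, 124 were positive in each (8.21%) and 125 negative in each (8.27%).

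The mean fold change over the 4 tissues was called for 4 of these 1511 genes (0.265%), with Tusc1 higher and Gm14149, Gm3662 and Cd14 lower in db/+ PIO, and 8.93% of the genes had an unadjusted p below 0.05. This fit took the libraries of a group as separate in the 4 tissues, although the tissues came from the same 6 mice. With a correlation estimated between libraries of one group and number (0.0374), Gm14149 alone was called (adjusted p = 0.000615), and Gm3662, Cd14 and Tusc1 had adjusted p-values of 0.0577, 0.0795 and 0.109. No gene differed among tissues in limma (0 of 1511, with 94 at an unadjusted p below 0.05, 6.22%). Rbp7 was not among the 1511 because of its low values in Glom. After quantile normalisation 0 genes were called for the mean, and the count ran between 1 and 4 when single libraries were left out.

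Gm14149, annotated as a processed transcript on chromosome 2 at 151030931 to 151057350 (plus strand, mm9), fell by 0.40 on the log2 scale as a mean over the tissues (SE 0.07, adjusted p = 0.000283, limma). In SCN it had 0.47, 1.07 and 1.24 FPKM in db/+ PIO and 1.14, 1.70 and 2.60 FPKM in db/+. In Glom it had 0.66, 1.11 and 1.43 FPKM in db/+ PIO and 1.26, 1.87 and 2.36 FPKM in db/+ (n = 6 each). The fold changes of Gm14149 were -0.47 in SCN, -0.41 in DRG, -0.48 in Glom and -0.23 in cortex, and the groups overlapped in every tissue. The call held in all 95 fits that left out 1 library.

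Gm3662, a predicted protein-coding gene on chromosome 8 at 103142530 to 103144395 (plus strand, mm9), fell by 0.28 on the log2 scale (SE 0.07, adjusted p = 0.0287, limma). In DRG it had 7.01, 9.61 and 10.9 FPKM in db/+ PIO and 10.2, 13.0 and 15.3 FPKM in db/+ (n = 6 each). For Gm14149 and Gm3662, replicate 6 of db/+ had the highest value of its group in SCN, DRG and cortex. The annotation used here gives no function for either gene.

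Cd14 fell by 0.36 on the log2 scale as a mean over the tissues (SE 0.09, adjusted p = 0.0357, limma), with fold changes of -0.70 in SCN, -0.11 in DRG, -0.16 in Glom and -0.45 in cortex. In cortex Cd14 had 2.50, 3.12 and 5.17 FPKM in db/+ PIO and 2.73, 5.23 and 9.27 FPKM in db/+ (n = 6 each). Tusc1, tumour suppressor candidate 1, on chromosome 4 at 93000839 to 93002202 (minus strand, mm9), rose by 0.29 ± 0.07 (adjusted p = 0.0482, limma), with fold changes of 0.13, 0.45, 0.19 and 0.37 in the same order of tissues. In cortex Tusc1 had 2.61, 3.17 and 4.06 FPKM in db/+ PIO and 1.58, 2.13 and 3.16 FPKM in db/+ (n = 6 each). The calls of Gm3662, Cd14 and Tusc1 ended in 6, 14 and 63 of the 95 fits without 1 library. When the 4 tissues of a group and number were averaged, a setting added after seeing the data, exact two-sided permutation tests over 6 against 6 gave p = 0.00433 for Gm14149, 0.00649 for Gm3662, 0.00216 for Cd14 and 0.00866 for Tusc1, where 0.00216 is the smallest possible p. The 4 genes had been picked out of 1511 for the same mean in the same libraries, so these p-values are no separate evidence. The average also takes the number to mark a mouse, which the labels do not say.

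**Figure D5:**
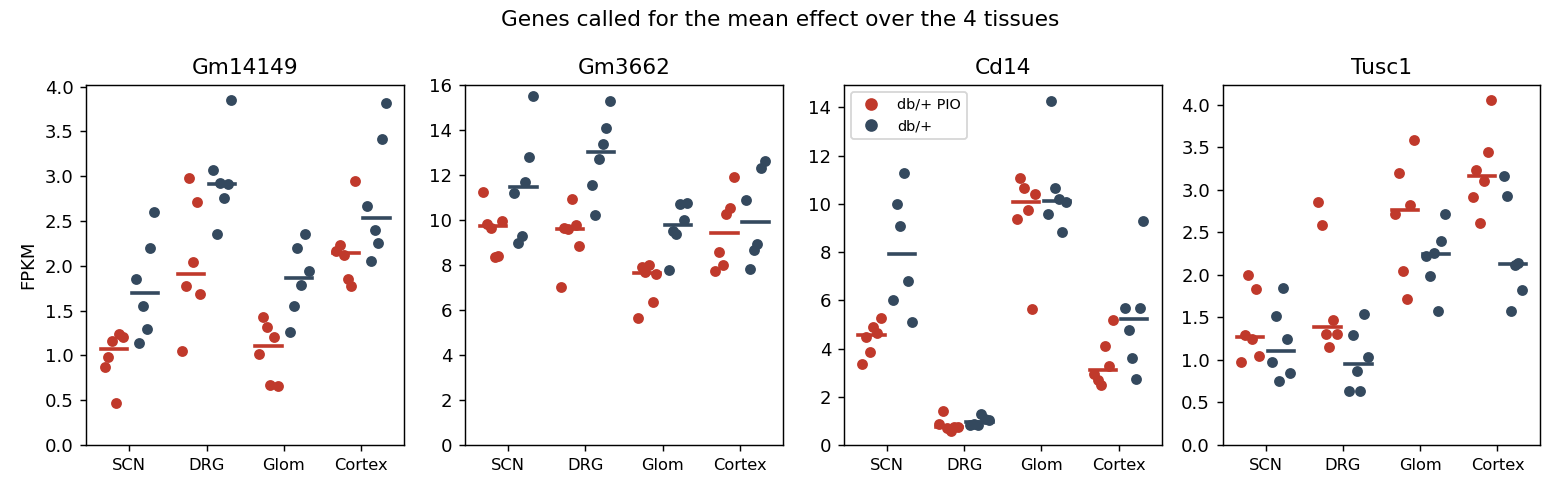
FPKM in each library of Gm14149, Gm3662, Cd14 and Tusc1 in the 4 tissues, db/+ PIO left of db/+, with bars at the medians. The db/+ PIO median is below the db/+ median for Gm14149, Gm3662 and Cd14 and above it for Tusc1 in each tissue, and most groups overlap.

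The genes whose smallest fold change over the 4 tissues was largest also had the same sign in each. Among those lower in each tissue, Ddit4, a stress-induced inhibitor of mTORC1, had fold changes of -0.88 in SCN, -0.21 in DRG, -0.35 in Glom and -0.70 in cortex, with a mean of -0.53 ± 0.17 that was not called (adjusted p = 0.251, limma). Tmem37, the guanine nucleotide exchange factor Net1 and the sphingosine-1-phosphate receptor S1pr1 had mean fold changes of -0.22, -0.25 and -0.29. Among those higher in each tissue, LOC100504586 had a mean of 0.32 (adjusted p = 0.361), and LOC100504142, Gm11974 and 6230427J02Rik had means of 0.24, 0.18 and 0.23.

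Whether the drug acted alike in db/+ and db/db mice was tested per gene as the effect in db/+ minus the effect in db/db. The effects differed for 215 of 3596 genes in SCN (5.98%; 77 higher and 138 lower in db/+), 322 of 3563 in Glom (9.04%; 270 higher and 52 lower), 1 of 3228 in cortex (0.031%) and 0 of 3305 in DRG, where 433 genes had an unadjusted p below 0.05 in limma (13.1%). The unadjusted share was 23.6% in SCN, 24.7% in Glom and 8.58% in cortex. The 1 gene in cortex was Phlda3, named after its values were seen because it was the only one. After quantile normalisation the count in SCN was 8 and that in Glom 134, and leaving out single libraries gave 102 to 342 in SCN and 234 to 566 in Glom.

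Rbp7 had fold changes of 2.30 in db/+ and 2.44 in db/db SCN. In db/db SCN it was 35.1, 70.2 and 81.5 FPKM (n = 3) with the drug, against 5.64, 10.6 and 15.9 FPKM (lowest, median and highest, n = 4) without. The difference between genotypes was -0.13 in SCN, with a 95% interval from -1.27 to 1.00 that leaves room for a sizeable difference either way, and -0.01 in DRG (-0.80 to 0.77). In cortex the Rbp7 effect was 1.53 in db/+ and 0.24 in db/db, a difference of 1.29 (interval 0.64 to 1.93) that was not called (adjusted p = 0.159, limma).

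Kcne4 and LOC100504147, lower with the drug in db/+ SCN, were not lower in db/db SCN. Kcne4 had an effect of -1.06 in db/+ and 0.16 in db/db (difference -1.22, adjusted p = 0.0149, limma). LOC100504147 had effects of -0.93 in db/+ and 0.57 in db/db (difference -1.50, adjusted p = 0.00445). Slc16a9 (-1.24 in db/+ and 0.62 in db/db), the dendritic cell lectin gene Cd209a (-0.85 and 0.43) and Cd14 (-0.70 and 0.15) also differed between genotypes, with differences of -1.87, -1.28 and -0.85 and adjusted p-values of 0.00696, 0.00725 and 0.0314. These genes, with Kcne4 and LOC100504147, were named for the smallest p-values among falls in db/+ SCN. That effect is part of the difference, so the choice of genes widens it. Cox8b, with effects of 3.05 in db/+ and 3.77 in db/db, did not pass the test of the difference (-0.72, interval -2.62 to 1.18).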

How the data were processed

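RNA-Seq values of 95 libraries were used, of which 48 are the db/+ PIO and db/+ libraries of 4 tissues. Alignment by the authors used TopHat and Bowtie with NCBI 37 (mm9) as the mouse reference, and the FPKM they deposited, one per gene symbol and library to 2 decimals, came from Cufflinks. The sources used here do not give program versions. Read totals were not used here, so the depth behind each value is unknown and its precision rests on the spread between libraries and the number of values. The authors' test, Cuffdiff, works on aligned reads and was not repeated. Nor do these sources say how reads shared by overlapping or near-identical genes were counted.

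Values were used as deposited, an exact 0 being taken as missing. After adding a pseudocount of 1 and taking log2, differences were tested with limma 3.58.1 (R 4.3.3). One model per tissue held its 4 groups, with variances following an intensity trend. Genes below 1 FPKM in all but 4 or fewer libraries of a tissue were dropped, and both groups needed 3 values or more. The mean over 4 tissues and the difference among them were tested in one fit of all libraries, and the difference between genotypes as an interaction. P-values were adjusted by Benjamini-Hochberg over all genes tested, with a threshold of 0.05. Exact permutation tests were two-sided (Python 3.11.15, numpy 2.4.6, pandas 2.3.3, scipy 1.17.1; figures with matplotlib 3.10.9). The fits were tested on simulated data.

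Genes named are those called, members of the PPAR and adipocyte lists, the 5 rises and 5 falls with the smallest p per tissue, the 5 genes per direction whose smallest effect over the tissues was largest, and 2 to 4 examples of each list described; some of these are given by counts only, and results of some single genes were left out. Gene lists numbered 37, and 663 of their 675 symbols were in the files. The members, lists and rules were chosen with earlier results of these data known. Coordinates are those of mm9 and promoter sequences are from RefSeq (GRCm38.p6).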

Additional observations from a re-analysis of the deposited data

Results flagged for a closer look

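In SCN, 5 of the named genes responded differently to pioglitazone in db/+ and in db/db mice in limma's test of the difference (effect in db/+ minus effect in db/db). Over all genes tested it was 215 of 3596 (5.98%). The differences were -0.85 for Cd14 (adjusted p = 0.0314), -1.28 for Cd209a (0.00725), -1.22 for Kcne4 (0.0149), -1.50 for LOC100504147 (0.00445) and -1.87 for Slc16a9 (0.00696). The 5 were named as the falls with the smallest p in db/+ SCN. Their negative effect in db/+ was therefore set by the choice, and it enters the difference. Their effect in db/db was positive.

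In Glom, 7 of the named genes differed between genotypes by the same test, beside 322 of 3563 over all genes tested (9.04%). Among the 7, Hcst, LOC100502979 and 2310001H12Rik had been named for small p-values among rises in db/+ Glom, an effect that enters the difference. Hcst had an effect of 0.73 in db/+ and -0.50 in db/db, a difference of 1.23 (adjusted p = 0.0034). LOC100502979 had effects of 0.86 and -0.82 (difference 1.69, adjusted p = 0.00245), 2310001H12Rik 0.91 and -0.20 (1.11, 0.0414), Hadh 0.12 and -0.39 (0.51, 0.0373) and LOC100504142 0.23 and -1.04 (1.27, 0.0248). Slc16a9 had effects of -0.33 in db/+ and 0.90 in db/db (difference -1.23, adjusted p = 0.0132). Tmem213, with effects of 0.17 and -3.72, had the widest difference, 3.89 (adjusted p = 0.0438).

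In 6 of 58 groups of values a single library lay far from the others. Chance gives about 1 in 20 for independent, normally distributed values. The groups here share genes and libraries, and the genes were picked for their results, so the 6 are not read as an excess. LOC100504147 was 25.7 FPKM in 1 db/+ PIO nerve, with the next highest at 15.6 FPKM. Rbp7 was 3.62 FPKM in 1 db/+ PIO Glom library, with the next at 0.95 FPKM. Fabp4 was 189.3 FPKM in 1 db/+ Glom library, with the next at 128.6 FPKM. Cd14 was 1.41 FPKM in 1 db/+ PIO DRG library (next 0.87 FPKM), 5.63 FPKM in 1 db/+ PIO Glom library, below the next at 9.39 FPKM, and 14.3 FPKM in 1 db/+ Glom library (next 10.6 FPKM).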

How the results depend on the processing

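The fold change of Rbp7 ran from 2.24 to 2.51 in SCN, 0.71 to 1.69 in DRG and 0.99 to 3.27 in cortex over the settings. In SCN the 4 calls became 2 with each 0 entered as a value (2700049A03Rik and Gpihbp1, named after their values were seen), 10 after median-of-ratios rescaling, 1 with only the compared groups in the fit and 16 with array weights (5 higher and 11 lower), and ran from 1 to 30 when single libraries were left out. In DRG 1 gene (E230016M11Rik) was called without the filter on low values, and single libraries left out gave 0 throughout in DRG and in Glom. In cortex the count was 0 with each 0 as a value, with at least 5 values per group and with only the compared groups, and 0 to 1 without single libraries. Rbp7 was not tested in cortex with at least 5 values per group or with only the compared groups. The mean over 4 tissues had 1 call with each 0 as a value, 8 without the filter, 2 with at least 2 values, 0 after quantile normalisation, 2 with only the compared groups and 7 with array weights, 1 without SCN, 2 without Glom and 2 without cortex, and 1 to 4 without single libraries. The difference among tissues had 7 calls without the filter, 1 with at least 2 values, 1 with array weights and 0 to 2 without single libraries.

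The genotype difference had 3 calls in SCN with each 0 as a value, 136 with at least 5 values, 8 after quantile normalisation, 502 with array weights and 102 to 342 without single libraries. In Glom these were 29, 171, 134, 640 and 234 to 566. In DRG there was 1 call with each 0 as a value, 3 after quantile normalisation and 0 to 1 without single libraries. In cortex there were 0 calls with each 0 as a value and after quantile normalisation, 3 with pseudocount 0.1, 5 without the filter, 3 with at least 5 values, 2 after median-of-ratios rescaling, 28 with array weights and 1 to 12 without single libraries. Quantile normalisation moved the median of all genes to 0.16 in SCN, -0.10 in DRG, -0.09 in Glom and 0.07 in cortex, and r between SCN and DRG to 0.160. Leaving out single libraries gave r from 0.171 to 0.270 for SCN and DRG, 0.007 to 0.107 for SCN and Glom, 0.043 to 0.152 for SCN and cortex, 0.047 to 0.185 for DRG and Glom, -0.081 to 0.096 for DRG and cortex and 0.033 to 0.097 for Glom and cortex.

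With each 0 entered as a value the sign turned for Adprhl2 (-0.40), Hadh (-0.60) and Ndufa10 (-1.49) in SCN, Efcab10 (-0.084), Exosc5 (-1.26) and Twf2 (-1.08) in DRG, 4933409K07Rik (0.0041), Calr3 (-0.13), Errfi1 (0.60) and Fabp4 (-0.42) in Glom, Fcgr4 (0.038) in cortex and 6230427J02Rik (-0.32) as a mean over the tissues.

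The replicate numbers did not pair the libraries: same-numbered db/+ PIO and db/+ libraries of a tissue had correlations of their deviations from -0.264 to 0.561, and 5 of 24 libraries correlated best with their own number. With the replicate number as a block, SCN had 4 calls (Rbp7, Kcne4, LOC100504147 and Arl4d, without Hadh), cortex 1, and DRG and Glom 0, the genotype difference had 200 in SCN, 351 in Glom, 3 in cortex and 0 in DRG, and the mean over 4 tissues had 1. The causes of these changes were not tested.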
